A study of Homo sapiens with 12 samples.

Results

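Interferon-stimulated genes are genes whose transcription rises when a cell senses interferon, and 42 of them were followed here in a triple-negative breast cancer (TNBC) cell line, in its drug-resistant derivative and after induction of SOX2 or of active NOTCH1. The 42 were chosen by name, as a list of well-known genes of this response, with earlier results of these data known. All 42 were found by gene name among the 29744 entries of the deposited count table. MB157 is an established TNBC line that makes a constitutively active NOTCH1, and MB157R is the derivative that grew out of it over 25 weeks in 1 µM of a γ-secretase inhibitor (GSI), which blocks the release of the NOTCH1 intracellular domain (N1-ICD) from the membrane. The 4 groups of 3 libraries each were MB157 with a doxycycline-inducible empty vector (MB157 iEV), MB157 with inducible SOX2 (MB157 iSOX2), MB157R with the empty vector (MB157R iEV) and MB157R with inducible active NOTCH1 (MB157R iN1-ICD). All 12 cultures, the empty-vector controls included, were given doxycycline for 72 h, and the lines had been made by lentiviral transduction. MB157R is 1 resistant line, so its difference from MB157 is that between a single pair of lines, and the sources used here do not say whether GSI was in its medium when RNA was taken. The labels name no interferon treatment in any group.

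Interferons of type I and type III signal through receptors bound to Janus kinases, which activate a complex of STAT2, a second STAT protein and IRF9. This complex binds the interferon-stimulated response element in the promoters of its targets, while interferon gamma acts through STAT dimers at gamma-activated sites. The products sense, degrade or trap viral RNA, block the entry and release of virus particles or attach the ubiquitin-like protein ISG15 to other proteins. In tumour cells many of these genes are also expressed at a low level without added interferon. Levels below are in CPM, read counts relative to library size, scaled by TMM, a factor that makes libraries comparable. They are compared between groups for 1 gene at a time, since CPM is not corrected for gene length. The call of a gene as higher or lower rests on an adjusted p under 0.05, over all genes tested in a comparison, from edgeR's quasi-likelihood test. A log2 change is the fitted one, and the SE after ± is its absolute value divided by the square root of the test's F statistic. Every fold below is the ratio of the mean CPM of 3 libraries unless a fitted change is named.

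Libraries held between 32773820 and 49055208 estimated counts. SOX2 was at 7.10 ± 0.544 CPM in MB157 iEV and 308 ± 23.3 CPM in MB157 iSOX2. NOTCH1 was at 92.4 ± 8.37 CPM in MB157R iEV and 2322 ± 487 CPM in MB157R iN1-ICD (SD, n = 3), so both inductions were visible in the RNA. The NOTCH1 level with iN1-ICD was 2617, 1760.1 and 2588 CPM in replicates 1, 2 and 3. MB157 iEV held NOTCH1 at 105 ± 5.56 CPM and MB157 iSOX2 at 37.6 ± 2.75 CPM. The NOTCH targets HEY2, HEYL and HES1 were at 11.0, 18.0 and 80.2 CPM in MB157 iEV and 1.73, 8.42 and 45.0 in MB157 iSOX2. They were at 0, 0 and 45.1 CPM in MB157R iEV and 0.583, 1.02 and 69.2 in MB157R iN1-ICD. SOX2 was at 60.3 ± 6.26 CPM in MB157R iEV and 18.8 ± 1.42 CPM in MB157R iN1-ICD. All 7 markers of mammary epithelium exceeded 1 CPM in each group. Of 10 immune cell markers, CD3E, MS4A1 and NKG7, which define T, B and natural killer cells, had 0 counts in all 12 libraries. The summed level of the 10 lay between 4.70 and 6.11 CPM in MB157R iEV, 12.4 and 14.9 in MB157 iSOX2, 16.4 and 17.7 in MB157R iN1-ICD and 41.6 and 45.2 in MB157 iEV. The summed level of 3 markers of plasmacytoid dendritic cells, the specialised interferon producers, was at most 1.27 CPM. In such bulk libraries fewer expressing cells and less RNA per cell cannot be told apart.

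The order of the 4 groups differed among the members. MB157 iEV held the lowest mean for 22 of the 42 and MB157 iSOX2 and MB157R iEV for 10 each, while MB157R iN1-ICD held the lowest mean for 0. The highest mean lay in MB157R iN1-ICD for 28 members, in MB157R iEV for 6, and in MB157 iEV and MB157 iSOX2 for 4 each. STAT2, HERC5, IFI6 and BST2 were the 4 with their highest mean in MB157 iSOX2. These ranks were not counted over all genes, so they only describe the 42. Some rest on few reads, as for IFI27 with between 4 and 18 counts in a group. For others, STAT2, IFITM3, ISG15, USP18 and PARP9 among them, libraries of the highest group overlapped those of the next.

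**Figure D1:**
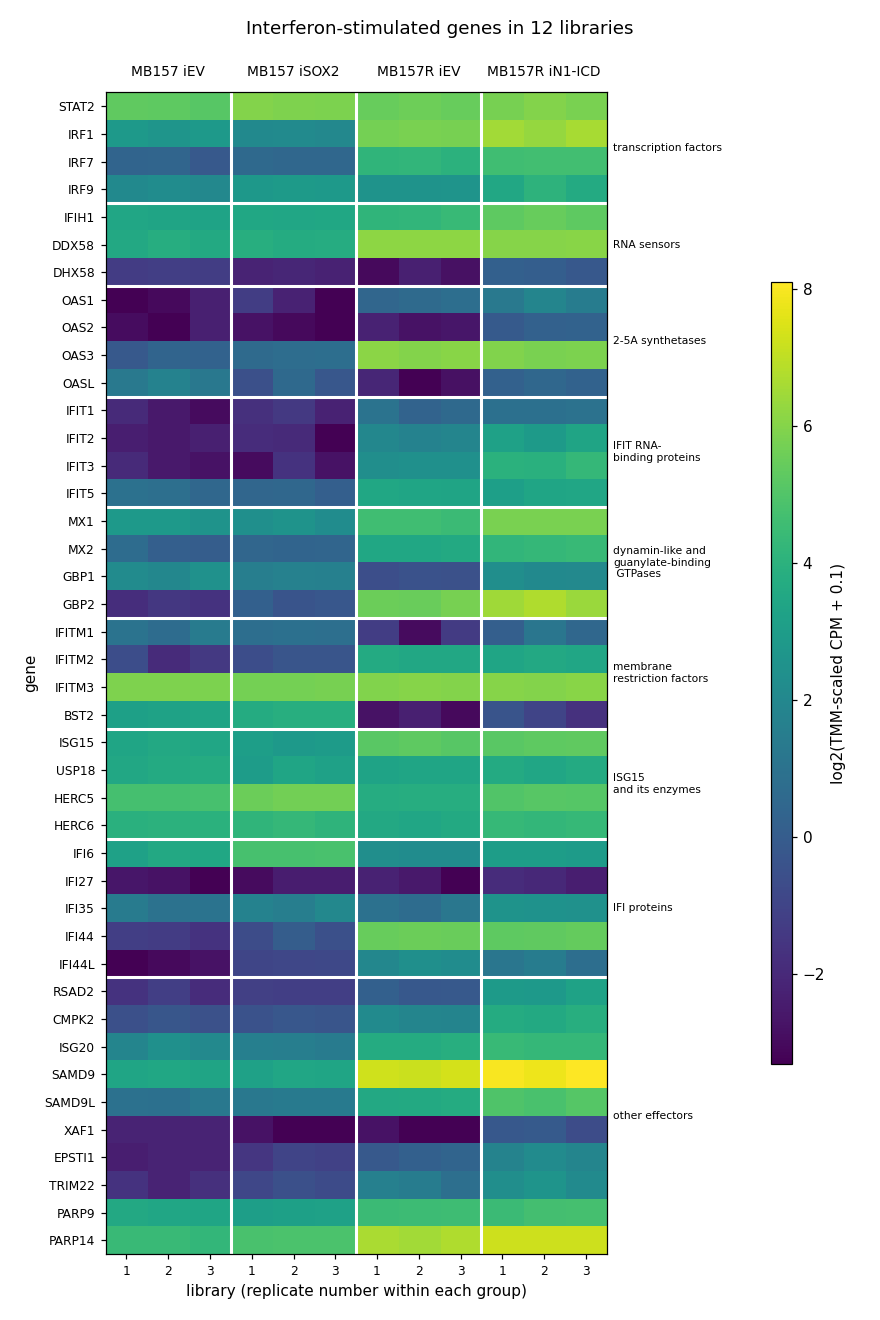
Level of each of the 42 interferon-stimulated genes, as log2(TMM-scaled CPM + 0.1), in 12 libraries (columns, grouped by cells and construct) with the genes in rows by role. The 3 libraries of a group look alike for most genes, the right-hand 6 columns (MB157R) are brighter than the left-hand 6 for most rows, and BST2, DHX58, OASL and GBP1 are darkest in MB157R iEV.

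The comparison of MB157R iEV with MB157 iEV asked how drug-resistant cells differ from the sensitive line. GBP2, IFI44, OAS3, IFIT3 and IFITM2 were between 35.6-fold and 218-fold higher in MB157R, while BST2 was 173-fold lower. That fold of BST2 rests on 7 counts in MB157R iEV, and its summed counts per library size were 181-fold lower (95% counting interval 87.4 to 450.3), an interval for counting error alone. The fold of IFIT3 rests on 10 counts in MB157 iEV, from which its summed counts were 58.8-fold higher (95% counting interval 31.8 to 123.2). GBP2, IFI44 and IFITM2 had 26, 33 and 36.2 estimated counts there. Of the 27 members in the authors' filtered table for this comparison, 20 were called higher (74.1%), where 45% of all 11435 genes tested were, and 6 were called lower (22.2%), where 45.3% of all genes were. By at least 2-fold, 16 were called higher (59.3%, against 20.7% of all genes) and 3 were called lower (11.1%, against 18.1% of all genes). The median fitted log2 fold change was 1.74 over the 27 and -0.00428 over all genes tested. The other 15 members were not in that table, from which the authors removed genes with low counts or low TPM, a level corrected for gene length. Most of the 15 did not lack reads, since 39 of the 42 were tested when a mean of at least 5 counts was the only filter. A gene could enter the table through the group in which it was high, so these shares describe the 27 and do not stand for the 42. With no filter on low counts all 42 entered the fit, of which 25 were called higher by at least 2-fold (59.5%, against 19.8% of 21060 genes) and 7 were called lower by at least 2-fold (16.7%, against 21.6%).

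For the 72 h induction of SOX2 in MB157, the question was what changes in a line that makes active NOTCH1. NOTCH1 RNA itself was lower with iSOX2 (37.6 against 105 CPM), and what part of the changes went with that was not tested. IFI6, HERC5, IRF9 and STAT2 rose, by 2.59-fold, 1.86-fold, 1.66-fold and 1.59-fold, and IRF1, ISG20, GBP1 and ISG15 fell, to between 0.606 and 0.705 of their level in MB157 iEV. Of 20 members tested, 8 were called higher (40%, against 32.5% of 10904 genes) and 8 were called lower (40%, against 33.9%), which is near the share over all genes in both directions. Only IFI6 of these 20 was called higher by at least 2-fold (5%, against 3.46%), and 0 were called lower by at least 2-fold (2.6% of all genes were). The largest fitted fall among them was -0.72 on the log2 scale, and limma-voom and DESeq2 also gave 0, as would any p threshold. The median fitted change was 0.02 over the 20 and -0.00192 over all genes. With no filter, 7 of 42 were called higher by at least 2-fold (16.7%, against 5.51% of 20985 genes) and 2 were called lower by at least 2-fold (4.76%, against 3.3%). The 7 were IFI6, GBP2, IFITM2, IFI44, IFI44L, EPSTI1 and TRIM22, and those besides IFI6 stood under 1 CPM in both groups.

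Induction of N1-ICD in MB157R asked what changes when active NOTCH1 is expressed in resistant cells, at an RNA level above that of MB157. RSAD2 rose 9.07-fold, IFITM1 6.96-fold, EPSTI1 3.80-fold, CMPK2 3.48-fold and IFIT3 3.28-fold, and IFI44L fell to 0.480 of its level in MB157R iEV. Of 34 members tested, 25 were called higher (73.5%, against 29.8% of 11210 genes) and 4 were called lower (11.8%, against 29.3%). Past 2-fold, 13 were called higher (38.2%, against 4.48%) and 1 was called lower (2.94%, against 0.687%). The median fitted change was 0.77 over the 34 and -0.00141 over all genes tested. With no filter, 19 of 42 were called higher by at least 2-fold (45.2%, against 7.76% of 20317 genes) and 1 was called lower by at least 2-fold (2.38%, against 0.999%). This comparison shares the MB157R iEV libraries with the first, and the SOX2 comparison shares MB157 iEV with it, so values of those pairs are given side by side and not correlated.

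**Figure D2:**
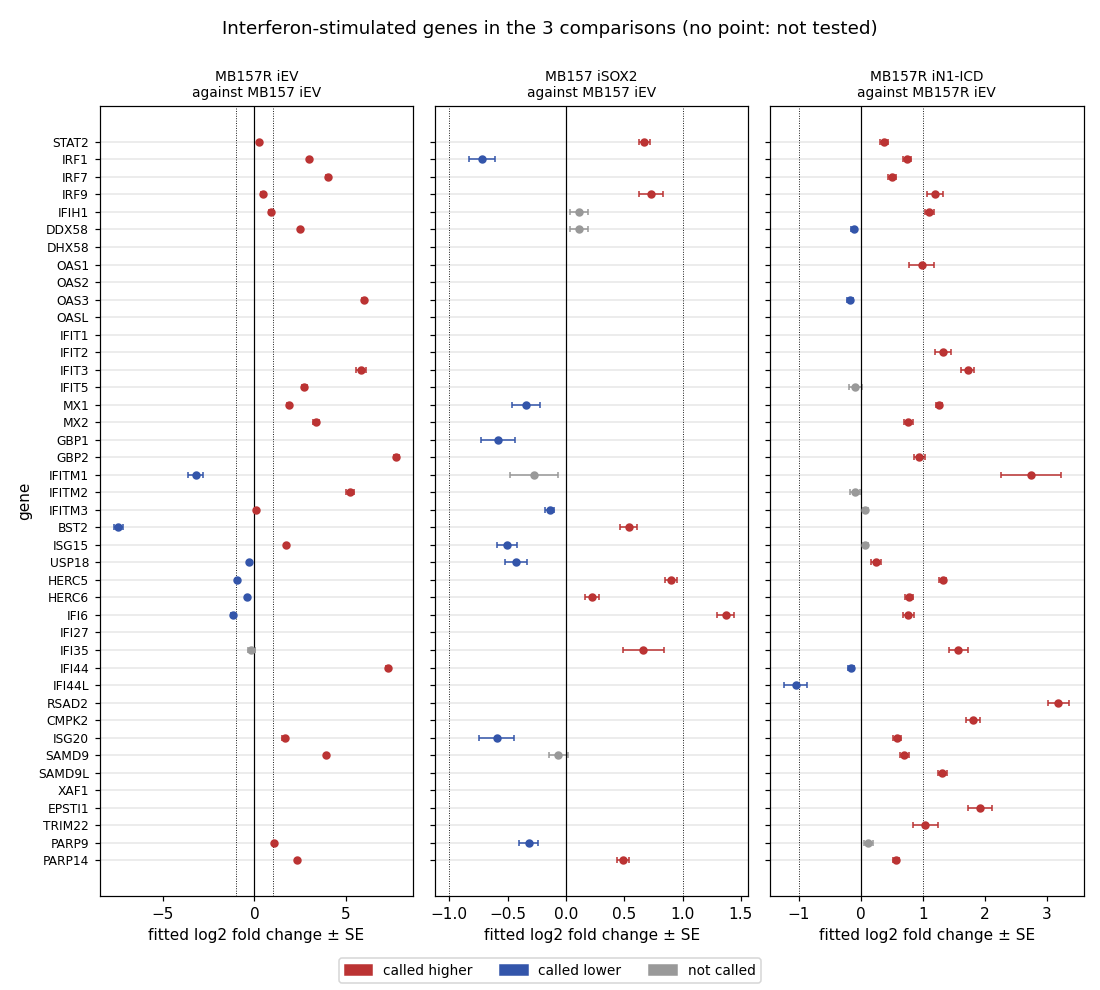
Fitted log2 fold change (x axis, points) of each interferon-stimulated gene (rows) in the 3 comparisons, which have different x scales. Bars are the SE derived from the fitted change and the F statistic of edgeR's test on 6 libraries. Red, blue and gray mark genes called higher, lower and not called, dotted lines mark 2-fold, and a row with no point was not tested. GBP2 and IFI44 lie above 7 and BST2 below -7 in the left panel, IFI6 alone lies beyond 2-fold in the middle one, and RSAD2 has the highest value in the right one.

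Promoters were searched because the members share a known regulatory sequence. RefSeq windows on GRCh38.p14 from 250 bases before to 50 bases after a transcription start were found for 32 of the 42 members (42 windows, since several have more than 1 start) and for 27305 genes in all, DDX58 under its current symbol RIGI. GAAANNGAA, the core of the interferon-stimulated response element, lay on either strand in the windows of 23 of the 32 (71.9%), against 9.86% of all genes. TTCNNNGAA, the pattern of the gamma-activated site, lay in those of 10 (31.2%, against 9.38%), and in 6 member windows a match to it overlapped a match to GAAANNGAA. The RBPJ core TGGGAA, bound by the DNA-binding partner of N1-ICD, lay in those of 7 (21.9%, against 28.1%), and the SOX pattern CATTGTT in those of 2, XAF1 and PARP9 (6.25%, against 4.08%). Such matches are a description of letters and not of binding, and GBP2, IRF7, IFIT2, MX2 and IFITM2 are among the 10 members with no window.

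The windows below belong to the member with the largest called rise or fall in each comparison whose window holds GAAANNGAA, and they are shown because they carry the element in genes that moved in different directions. Capitals mark the matches, each window is written in the direction of transcription, and all are GRCh38.p14. IFI44 (chr1:78649539-78649838, plus strand) had the largest rise and BST2 (chr19:17405581-17405880, minus strand) the largest fall in MB157R. IFI6 (chr1:27672143-27672442, minus strand) had the largest rise and ISG20 (chr15:88638766-88639065, plus strand) the largest fall with iSOX2. RSAD2 (chr2:6865635-6865934, plus strand) had the largest rise and IFI44L (chr1:78620198-78620497, plus strand) the largest fall with iN1-ICD. RSAD2 and IFI44 each have a further window with a match, and the first listed is shown.
IFI44: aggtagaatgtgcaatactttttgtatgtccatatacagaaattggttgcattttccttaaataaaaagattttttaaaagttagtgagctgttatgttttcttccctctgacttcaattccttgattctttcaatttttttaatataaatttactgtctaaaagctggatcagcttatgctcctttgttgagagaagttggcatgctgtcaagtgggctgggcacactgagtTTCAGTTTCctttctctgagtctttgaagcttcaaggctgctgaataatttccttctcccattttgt
BST2: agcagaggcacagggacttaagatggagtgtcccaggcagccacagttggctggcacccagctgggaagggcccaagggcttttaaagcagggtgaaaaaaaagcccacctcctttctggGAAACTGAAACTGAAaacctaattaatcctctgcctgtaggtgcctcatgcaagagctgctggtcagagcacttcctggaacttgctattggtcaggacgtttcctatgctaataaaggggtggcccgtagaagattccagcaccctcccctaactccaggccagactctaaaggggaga
IFI6: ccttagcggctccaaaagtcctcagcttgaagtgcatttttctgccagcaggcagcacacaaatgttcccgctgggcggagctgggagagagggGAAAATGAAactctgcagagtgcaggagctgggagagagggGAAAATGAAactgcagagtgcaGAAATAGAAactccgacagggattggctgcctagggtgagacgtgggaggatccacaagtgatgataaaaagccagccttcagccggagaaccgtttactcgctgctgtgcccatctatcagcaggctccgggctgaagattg
ISG20: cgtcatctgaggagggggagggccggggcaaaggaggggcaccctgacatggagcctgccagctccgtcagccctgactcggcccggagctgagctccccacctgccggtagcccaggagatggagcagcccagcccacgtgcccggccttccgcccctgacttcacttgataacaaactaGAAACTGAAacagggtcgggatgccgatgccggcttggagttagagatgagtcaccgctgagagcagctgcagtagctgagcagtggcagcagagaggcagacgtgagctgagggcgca
RSAD2: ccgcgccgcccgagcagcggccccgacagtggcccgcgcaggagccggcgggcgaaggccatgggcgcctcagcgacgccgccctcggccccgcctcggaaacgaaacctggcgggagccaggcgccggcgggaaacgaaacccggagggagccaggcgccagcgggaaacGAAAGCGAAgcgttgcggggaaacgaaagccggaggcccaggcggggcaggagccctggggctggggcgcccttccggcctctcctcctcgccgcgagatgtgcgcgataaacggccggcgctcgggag
IFI44L: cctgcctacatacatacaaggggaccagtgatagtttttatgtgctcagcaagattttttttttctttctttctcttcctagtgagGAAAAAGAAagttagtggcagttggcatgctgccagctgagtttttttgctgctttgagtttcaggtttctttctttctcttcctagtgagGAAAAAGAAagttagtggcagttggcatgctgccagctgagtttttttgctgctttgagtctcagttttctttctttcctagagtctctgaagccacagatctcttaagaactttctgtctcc
IFI6 held 3 matches and BST2 and IFI44L 2 each, those of BST2 overlapping each other, while IFI44, ISG20 and RSAD2 held 1. In BST2, whose level was lower in MB157R, matches to TTCNNNGAA (2) and to the RBPJ core (2) were also present, and the other 5 windows held neither. The first match began 156 bases upstream of the start in IFI6, 130 in BST2, 164 in IFI44L, 79 in RSAD2, 69 in ISG20 and 17 in IFI44. In the windows not shown it began 144 bases upstream for RSAD2 (chr2:6877527-6877826) and 59 for IFI44 (chr1:78649581-78649880).

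The transcription factors of the response were each called higher in MB157R and each called higher with iN1-ICD, but they parted with iSOX2. IRF1, a regulatory factor that interferon gamma induces, stood at 7.21, 6.08 and 7.16 CPM in MB157 iEV, 4.14, 4.34 and 3.91 in MB157 iSOX2, 51.9, 55.0 and 54.0 in MB157R iEV and 92.0, 78.4 and 97.5 in MB157R iN1-ICD. The 4 groups did not overlap. IRF1 was 7.87-fold higher in MB157R (log2 change 2.98 ± 0.0674, adjusted p = 1.21e-13), 1.65-fold lower with iSOX2 (log2 change -0.72 ± 0.111, adjusted p = 3.19e-05) and 1.66-fold higher with iN1-ICD (log2 change 0.74 ± 0.0706, adjusted p = 6.82e-06). IRF7, which drives the genes of type I interferons, stood at 1.20, 1.23 and 0.810 CPM in MB157 iEV, 1.40, 1.30 and 1.31 in MB157 iSOX2, 17.6, 18.3 and 16.2 in MB157R iEV and 24.1, 24.6 and 24.7 in MB157R iN1-ICD. Its MB157R level was 16.0-fold that of MB157 (log2 change 4.01 ± 0.130, adjusted p = 4.49e-12) and rose a further 1.41-fold with iN1-ICD, with all 3 libraries of each of these groups apart from the others. For the SOX2 comparison IRF7 was not in the filtered table, and with no filter its fitted change was 0.31 with an adjusted p of 0.324.

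IRF9, the DNA-binding subunit of the complex that forms under type I interferon, stood at 4.25, 4.58 and 3.97 CPM in MB157 iEV, 6.76, 7.43 and 7.03 in MB157 iSOX2, 5.83, 5.78 and 6.01 in MB157R iEV and 11.5, 16.4 and 12.4 in MB157R iN1-ICD. It was higher in each comparison, by 1.37-fold in MB157R (adjusted p = 0.00158), 1.66-fold with iSOX2 (adjusted p = 1.45e-05) and 2.29-fold with iN1-ICD (adjusted p = 1.64e-05), and the 4 groups did not overlap. STAT2, its partner in that complex, stood at 37.7 ± 2.25 CPM in MB157 iEV, 60.0 ± 2.39 in MB157 iSOX2, 44.7 ± 2.26 in MB157R iEV and 57.8 ± 5.00 in MB157R iN1-ICD. It was also called higher in all 3, by 1.18-fold, 1.59-fold and 1.29-fold, and its libraries with iSOX2 and with iN1-ICD overlapped each other.

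Both cytosolic RNA sensors that were tested were higher in MB157R, and they diverged with iN1-ICD. DDX58, which encodes the sensor RIG-I, stood at 11.7, 13.7 and 12.3 CPM in MB157 iEV, 14.2, 13.1 and 13.6 in MB157 iSOX2, 71.5, 71.8 and 71.6 in MB157R iEV and 64.3, 65.2 and 67.6 in MB157R iN1-ICD. MB157R held 5.70-fold more of it (log2 change 2.51 ± 0.0572, adjusted p = 1.30e-13). With iN1-ICD it was 1.09-fold lower, a call that was lost with any 1 of 5 of the 6 libraries left out (all but replicate 3 of MB157R iN1-ICD) and with DESeq2 (adjusted p = 0.0525). IFIH1, which encodes the sensor MDA5, stood at 10.7, 10.2 and 9.69 CPM in MB157 iEV, 11.0, 10.7 and 11.2 in MB157 iSOX2, 17.8, 18.3 and 20.5 in MB157R iEV and 38.3, 44.0 and 38.6 in MB157R iN1-ICD. It was 1.85-fold higher in MB157R and a further 2.14-fold higher with iN1-ICD (log2 change 1.10 ± 0.0709, adjusted p = 3.51e-07). With iSOX2 neither passed the test, with fitted log2 changes of 0.11 and 0.11 (adjusted p = 0.188 and 0.193). DHX58, which encodes LGP2, a further helicase of that family, was tested in no comparison, with 37 counts in MB157 iEV, 16 with iSOX2, 7 in MB157R iEV and 121 with iN1-ICD. With no filter its fitted log2 change was -2.45 with an adjusted p of 0.00244 in MB157R and 4.06 with an adjusted p of 1.52e-06 with iN1-ICD.

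The oligoadenylate synthetases, which answer double-stranded RNA by making the activator of RNase L, parted with iN1-ICD. OAS3 stood at 0.801, 1.19 and 1.10 CPM in MB157 iEV, 1.45, 1.61 and 1.65 in MB157 iSOX2, 69.1, 63.2 and 66.5 in MB157R iEV and 60.6, 56.5 and 57.9 in MB157R iN1-ICD. It was 64.3-fold higher in MB157R (log2 change 5.98 ± 0.0920, adjusted p = 3.33e-15) and 1.14-fold lower with iN1-ICD (log2 change -0.18 ± 0.0474, adjusted p = 0.00828), with no overlap in either comparison. OAS1 had 5 counts in MB157 iEV, 18 with iSOX2, 193 in MB157R iEV and 363 with iN1-ICD, and rose 1.98-fold with iN1-ICD (adjusted p = 0.00167). In MB157R, where the filtered table left OAS1 out, its unfiltered log2 change had the sign of that of OAS3, at 5.05 with an adjusted p of 6.18e-09. OAS2, with 5 counts in MB157 iEV, 3 with iSOX2, 10 in MB157R iEV and 128 with iN1-ICD, and OASL, a relative without synthetase activity, with 307 counts in MB157 iEV, 119 with iSOX2, 8 in MB157R iEV and 148 with iN1-ICD, were tested in no comparison. With no filter OAS2 had a fitted log2 change of 3.66 with an adjusted p of 1.28e-06 with iN1-ICD. On that fit OASL changed by -5.30 with an adjusted p of 4.45e-10 in MB157R, -1.53 with an adjusted p of 1.92e-07 with iSOX2 and 4.18 with an adjusted p of 2.76e-06 with iN1-ICD. Among these neighbours on chromosome 12 (OAS1, OAS3 and OAS2 between 112906962 and 113011723), OAS3 was thus lower with iN1-ICD while OAS1, and OAS2 on the unfiltered fit, were higher.

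The IFIT proteins are a family of RNA-binding proteins, and their 4 genes, which lie together on chromosome 10 between 89302046 and 89420997, were at low levels in MB157. IFIT3 stood at 0.154, 0.0712 and 0.0491 CPM in MB157 iEV, 0.0245, 0.224 and 0.0452 in MB157 iSOX2, 4.88, 5.19 and 5.22 in MB157R iEV and 15.7, 15.1 and 19.4 in MB157R iN1-ICD. MB157R held 55.7-fold more (log2 change 5.83 ± 0.266, adjusted p = 1.49e-10), and iN1-ICD raised it 3.28-fold (log2 change 1.72 ± 0.107, adjusted p = 2.77e-07). IFIT2 stood at 0.0924, 0.0712 and 0.0981 CPM in MB157 iEV, 0.172, 0.157 and 0 in MB157 iSOX2, 3.83, 3.26 and 3.62 in MB157R iEV and 9.25, 7.40 and 9.98 in MB157R iN1-ICD. Its rise with iN1-ICD was 2.49-fold (log2 change 1.32 ± 0.132, adjusted p = 9.93e-06), and in MB157R, where the filtered table left it out, the unfiltered fit gave a log2 change of 5.39 with an adjusted p of 2.95e-13. IFIT5 stood at 1.85, 1.71 and 1.32 CPM in MB157 iEV, 1.27, 1.30 and 0.994 in MB157 iSOX2, 11.1, 10.5 and 10.1 in MB157R iEV and 8.57, 10.3 and 10.8 in MB157R iN1-ICD. It was 6.50-fold higher in MB157R (log2 change 2.71 ± 0.130, adjusted p = 2.42e-10), and its libraries with and without iN1-ICD overlapped (log2 change -0.09, adjusted p = 0.464). IFIT1 had 9 counts in MB157 iEV, 25 with iSOX2, 197 in MB157R iEV and 231 with iN1-ICD and was tested in no comparison. Its unfiltered log2 change was 4.27 with an adjusted p of 1.79e-08 in MB157R and 0.26 with an adjusted p of 0.376 with iN1-ICD.

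Among the GTPases, the dynamin-like MX1 and MX2, which block incoming viral particles and genomes, were both higher in MB157R and with iN1-ICD, while the guanylate-binding GBP1 and GBP2 differed in sign in MB157R. MX1 stood at 6.99, 6.89 and 5.69 CPM in MB157 iEV, 5.12, 5.69 and 4.59 in MB157 iSOX2, 24.4, 24.2 and 22.2 in MB157R iEV and 55.9, 55.9 and 56.2 in MB157R iN1-ICD. It was 3.62-fold higher in MB157R (log2 change 1.86 ± 0.0853, adjusted p = 1.54e-10) and 2.37-fold higher with iN1-ICD (log2 change 1.26 ± 0.0490, adjusted p = 6.30e-09). With iSOX2 it was 1.27-fold lower (adjusted p = 0.0183), a call lost when replicate 1 or 2 of MB157 iEV or replicate 3 of MB157 iSOX2 was left out (log2 changes of -0.29, -0.30 and -0.26). MX2, its neighbour on chromosome 21 (the pair spans 41362027 to 41459214), stood at 1.54, 0.997 and 0.932 CPM in MB157 iEV, 1.27, 1.16 and 1.24 in MB157 iSOX2, 11.2, 10.9 and 12.3 in MB157R iEV and 18.5, 19.4 and 20.4 in MB157R iN1-ICD. It was 9.92-fold higher in MB157R and 1.69-fold higher with iN1-ICD, without overlap in either comparison.

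GBP2 stood at 0.185, 0.261 and 0.221 CPM in MB157 iEV, 1.03, 0.672 and 0.746 in MB157 iSOX2, 46.9, 45.0 and 53.5 in MB157R iEV and 88.5, 106 and 83.0 in MB157R iN1-ICD. It was 218-fold higher in MB157R (log2 change 7.73 ± 0.137, adjusted p = 1.23e-14), the largest fitted rise among the 27 members tested there, and rose 1.91-fold with iN1-ICD (log2 change 0.94 ± 0.0886, adjusted p = 6.47e-06). GBP1, which lies beside it on chromosome 1 (the pair spans 89052319 to 89126114), stood at 4.56 ± 0.822 CPM in MB157 iEV, 3.03 ± 0.134 in MB157 iSOX2, 0.605 ± 0.0315 in MB157R iEV and 4.38 ± 0.464 in MB157R iN1-ICD. It fell 1.5-fold with iSOX2 (adjusted p = 0.00213), and on the unfiltered fit it changed by -2.83 with an adjusted p of 6.30e-11 in MB157R and 2.83 with an adjusted p of 1.90e-09 with iN1-ICD. The 2 neighbours therefore had opposite signs in MB157R.

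**Figure D3:**
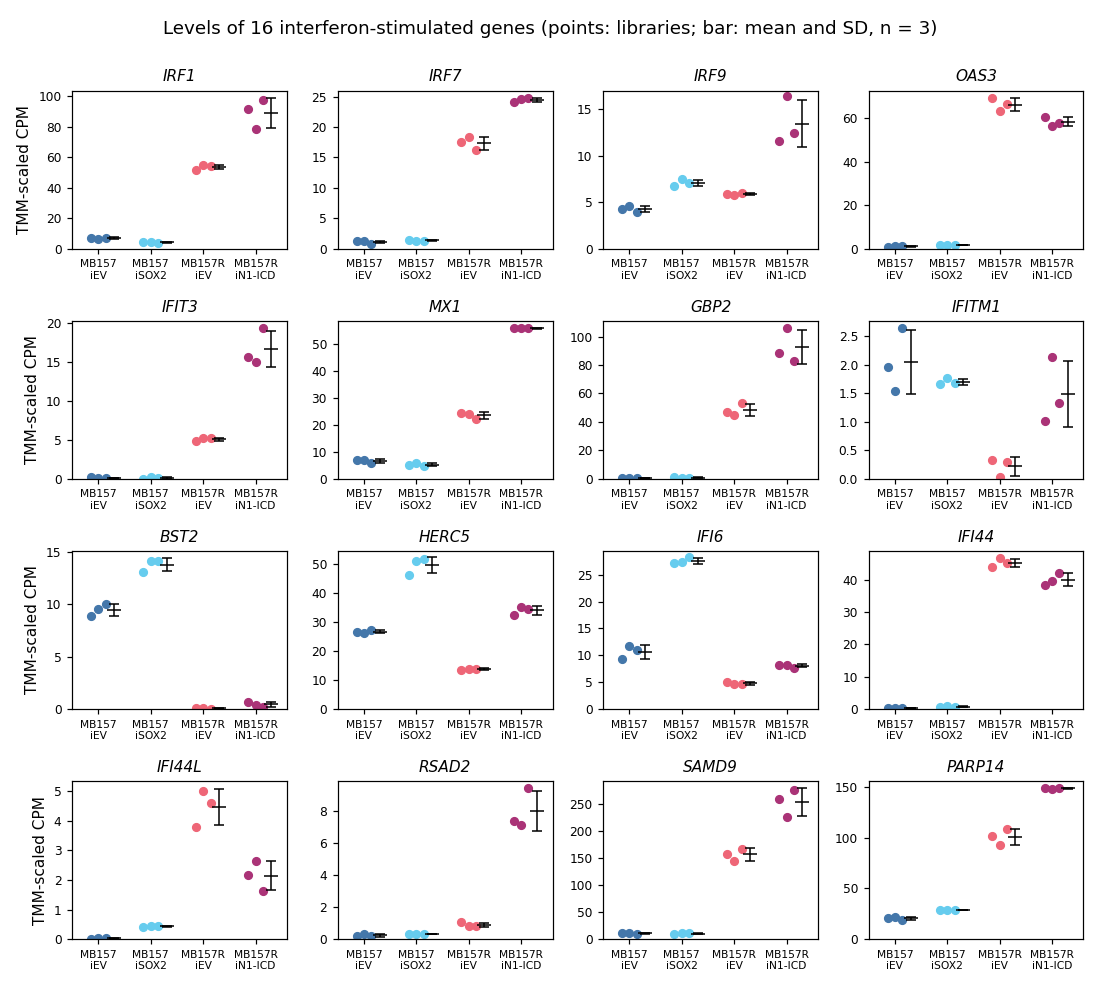
TMM-scaled CPM (y axis from 0, a scale of its own in each panel) of 16 interferon-stimulated genes in 4 groups (x axis); colored points are libraries and the black bar is the mean and SD of 3. OAS3, GBP2, IFI44 and SAMD9 are near 0 or low in both MB157 groups and high in both MB157R groups, BST2 shows the opposite, and RSAD2 and IFIT3 are highest with iN1-ICD.

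The membrane restriction factors, which stop viruses at entry or at release, differed in direction. BST2, which encodes tetherin, a protein that holds budding particles at the cell surface, stood at 8.87, 9.59 and 10.0 CPM in MB157 iEV, 13.1, 14.1 and 14.2 in MB157 iSOX2, 0.0459, 0.0979 and 0.0208 in MB157R iEV and 0.679, 0.402 and 0.211 in MB157R iN1-ICD. The 3 MB157R iEV libraries held 7 counts in all, and the fitted log2 change was -7.41 (SE 0.25, adjusted p = 5.58e-12), the largest fall among the members tested. SOX2 induction raised it 1.45-fold in MB157 (log2 change 0.54 ± 0.0735, adjusted p = 7.86e-06). In MB157R iN1-ICD it had 56 counts, an unfiltered log2 change of 2.94 with an adjusted p of 0.00180, which left it below both MB157 groups.

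IFITM1, IFITM2 and IFITM3, which hinder the fusion of virus and cell membranes, lie within 13.0 kb on chromosome 11 (307816 to 320860) and are near-identical in parts, so Salmon splits shared reads among them and their counts are not whole numbers. IFITM2 stood at 0.558, 0.168 and 0.270 CPM in MB157 iEV, 0.543, 0.699 and 0.698 in MB157 iSOX2, 12.4, 11.4 and 11.6 in MB157R iEV and 10.4, 11.8 and 10.9 in MB157R iN1-ICD. It was 35.6-fold higher in MB157R (log2 change 5.23 ± 0.212, adjusted p = 4.28e-11), and its libraries with and without iN1-ICD overlapped. IFITM1 went the other way, at 2.04 ± 0.558 CPM in MB157 iEV, 1.69 ± 0.0544 in MB157 iSOX2, 0.214 ± 0.164 in MB157R iEV and 1.49 ± 0.577 in MB157R iN1-ICD. It was 9.55-fold lower in MB157R (log2 change -3.20 ± 0.416, adjusted p = 7.88e-06) and rose 6.96-fold with iN1-ICD (log2 change 2.75 ± 0.484, adjusted p = 6.10e-04), where its libraries lay between 1.01 and 2.13 CPM. IFITM3 stood at 58.5 ± 1.45 CPM in MB157 iEV, 53.1 ± 1.10 in MB157 iSOX2, 62.9 ± 1.78 in MB157R iEV and 65.4 ± 1.35 in MB157R iN1-ICD. Its rise in MB157R was 1.07-fold (adjusted p = 0.0270), a call lost when replicate 3 of MB157 iEV or replicate 2 of MB157R iEV was left out (adjusted p = 0.0817 and 0.104). Its fall with iSOX2 was 1.10-fold (adjusted p = 0.00564).

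ISG15 and the enzymes that attach and remove it did not move together. ISG15 itself stood at 10.4, 11.7 and 10.8 CPM in MB157 iEV, 8.31, 7.14 and 7.70 in MB157 iSOX2, 36.5, 38.1 and 35.4 in MB157R iEV and 36.2, 38.2 and 40.0 in MB157R iN1-ICD. It was 3.35-fold higher in MB157R (log2 change 1.74 ± 0.0617, adjusted p = 1.06e-11), 1.42-fold lower with iSOX2 (log2 change -0.51 ± 0.0864, adjusted p = 8.37e-05) and, with iN1-ICD, within the spread of its control (log2 change 0.07, adjusted p = 0.301). HERC5, the ligase that joins ISG15 to other proteins, stood at 26.5, 26.2 and 27.3 CPM in MB157 iEV, 46.3, 51.0 and 51.6 in MB157 iSOX2, 13.4, 13.9 and 13.8 in MB157R iEV and 32.3, 35.3 and 34.3 in MB157R iN1-ICD. The 4 groups did not overlap, and HERC5 was 1.95-fold lower in MB157R, 1.86-fold higher with iSOX2 (log2 change 0.90 ± 0.0504, adjusted p = 1.54e-10) and 2.48-fold higher with iN1-ICD (log2 change 1.32 ± 0.0579, adjusted p = 1.58e-08). HERC6, its neighbour on chromosome 4 (the pair spans 88378852 to 88506163), had the same signs at smaller size, 1.33-fold lower, 1.17-fold higher and 1.70-fold higher. Its level was 15.6 ± 0.374 CPM in MB157 iEV, 18.2 ± 0.948 in MB157 iSOX2, 11.7 ± 0.754 in MB157R iEV and 19.9 ± 0.678 in MB157R iN1-ICD. USP18, the protease that removes ISG15 and also restrains interferon receptors, stood at 12.3 ± 0.683 CPM in MB157 iEV, 9.11 ± 1.22 in MB157 iSOX2, 10.2 ± 0.344 in MB157R iEV and 11.9 ± 0.936 in MB157R iN1-ICD. It was 1.21-fold lower in MB157R (adjusted p = 0.00435) and 1.35-fold lower with iSOX2 (adjusted p = 7.33e-04). It was 1.18-fold higher with iN1-ICD (adjusted p = 0.0243), a call lost with no filter and without replicate 1 or 3 of MB157R iN1-ICD or replicate 1 of MB157R iEV (adjusted p between 0.0589 and 0.087).

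The IFI genes, named for their induction by interferon, moved in both directions. IFI6, a small membrane protein that limits cell death and virus replication, stood at 9.24, 11.8 and 11.0 CPM in MB157 iEV, 27.2, 27.5 and 28.3 in MB157 iSOX2, 4.98, 4.65 and 4.59 in MB157R iEV and 8.19, 8.18 and 7.69 in MB157R iN1-ICD. Here too the 4 groups stood apart. IFI6 was 2.25-fold lower in MB157R (log2 change -1.17 ± 0.109, adjusted p = 2.69e-07), 2.59-fold higher with iSOX2 (log2 change 1.37 ± 0.0720, adjusted p = 6.81e-11) and 1.69-fold higher with iN1-ICD (log2 change 0.77 ± 0.0960, adjusted p = 5.32e-05). IFI44 stood at 0.339, 0.309 and 0.221 CPM in MB157 iEV, 0.539, 0.940 and 0.587 in MB157 iSOX2, 43.9, 46.5 and 45.0 in MB157R iEV and 38.3, 39.5 and 42.2 in MB157R iN1-ICD. Its level in MB157R was 156-fold that of MB157 (log2 change 7.29 ± 0.106, adjusted p = 1.93e-15), and with iN1-ICD it was 1.13-fold lower (adjusted p = 0.0121), not called without replicate 1 of MB157R iN1-ICD (adjusted p = 0.0668).

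IFI44L, which lies beside IFI44 on chromosome 1 (the pair spans 78620448 to 78664078), had 3 counts in MB157 iEV, 57 with iSOX2, 593 in MB157R iEV and 274 with iN1-ICD. From its 3 counts in MB157 iEV, the summed counts per library size were 172-fold higher (95% counting interval 58.6 to 836) in MB157R iEV and 16.9-fold higher (95% counting interval 5.50 to 84.3) in MB157 iSOX2. With iN1-ICD it stood at 2.17, 2.64 and 1.64 CPM against 3.81, 5.02 and 4.61 CPM in the control, 2.08-fold lower (log2 change -1.05 ± 0.183, adjusted p = 5.64e-04). The fitted fall was under 2-fold without replicate 3 of MB157R iN1-ICD or replicate 2 of MB157R iEV (log2 changes down to -0.89). Both neighbours were thus higher in MB157R and lower with iN1-ICD. IFI35 stood at 2.59, 1.88 and 1.96 CPM in MB157 iEV, 3.21, 2.89 and 3.98 in MB157 iSOX2, 1.83, 1.54 and 2.24 in MB157R iEV and 5.67, 5.63 and 5.41 in MB157R iN1-ICD. It rose 1.57-fold with iSOX2 (log2 change 0.66 ± 0.174, adjusted p = 0.00319) and 2.97-fold with iN1-ICD (log2 change 1.57 ± 0.148, adjusted p = 6.47e-06), and its MB157 and MB157R control libraries overlapped (adjusted p = 0.424). IFI27 had 4 counts in MB157 iEV, 9 with iSOX2, 8 in MB157R iEV and 18 with iN1-ICD, and was tested in none, with unfiltered adjusted p-values between 0.316 and 0.547.

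Of the remaining effectors, RSAD2 and CMPK2 are read from opposite strands of 1 locus on chromosome 2 (6840553 to 6898239), where a promoter window of CMPK2 overlaps that of RSAD2 printed above. RSAD2 encodes viperin, which makes a chain-terminating nucleotide, and stood at 0.216, 0.332 and 0.172 CPM in MB157 iEV, 0.343, 0.336 and 0.339 in MB157 iSOX2, 1.03, 0.783 and 0.811 in MB157R iEV and 7.36, 7.09 and 9.37 in MB157R iN1-ICD. It rose 9.07-fold with iN1-ICD (log2 change 3.19 ± 0.174, adjusted p = 9.58e-08), the largest fitted rise among the members tested there. CMPK2, a nucleotide kinase that supplies its substrate, stood at 0.585, 0.736 and 0.613 CPM in MB157 iEV, 0.637, 0.761 and 0.700 in MB157 iSOX2, 4.33, 3.55 and 3.41 in MB157R iEV and 12.8, 12.3 and 14.1 in MB157R iN1-ICD. It rose 3.48-fold with iN1-ICD (log2 change 1.81 ± 0.112, adjusted p = 2.61e-07), and the 3 libraries of that group lay above all others. In MB157R both were outside the filtered table, with unfiltered log2 changes of 1.92 with an adjusted p of 9.21e-05 for RSAD2 and 2.61 with an adjusted p of 2.55e-10 for CMPK2.

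SAMD9 and SAMD9L, neighbours on chromosome 7 (93099518 to 93148385) that restrict poxviruses and protein synthesis, were both higher in MB157R groups. SAMD9 stood at 10.5, 10.9 and 10.2 CPM in MB157 iEV, 9.12, 10.8 and 10.3 in MB157 iSOX2, 157, 144 and 167 in MB157R iEV and 258, 225 and 275 in MB157R iN1-ICD. It was 14.8-fold higher in MB157R (log2 change 3.89 ± 0.0631, adjusted p = 5.30e-15) and 1.62-fold higher with iN1-ICD (log2 change 0.70 ± 0.0717, adjusted p = 1.18e-05). Under iSOX2 its libraries overlapped those of the control (log2 change -0.06, adjusted p = 0.507). SAMD9L stood at 1.85, 1.73 and 2.31 CPM in MB157 iEV, 2.30, 2.49 and 2.51 in MB157 iSOX2, 11.9, 12.2 and 13.2 in MB157R iEV and 30.5, 28.1 and 33.6 in MB157R iN1-ICD. Its rise with iN1-ICD was 2.47-fold (log2 change 1.31 ± 0.0759, adjusted p = 1.48e-07), with an unfiltered log2 change of 2.74 with an adjusted p of 1.11e-14 in MB157R. ISG20, an exonuclease that degrades viral RNA, stood at 3.54, 5.18 and 4.05 CPM in MB157 iEV, 2.99, 2.89 and 2.62 in MB157 iSOX2, 12.8, 13.0 and 14.4 in MB157R iEV and 21.0, 19.3 and 19.7 in MB157R iN1-ICD. It was 3.16-fold higher in MB157R, 1.5-fold lower with iSOX2 (adjusted p = 0.00280) and 1.49-fold higher with iN1-ICD, and no groups overlapped.

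PARP14 and PARP9, which belong to the enzymes of ADP-ribosylation, were both higher in MB157R and had opposite signs with iSOX2. PARP14 stood at 21.1, 21.3 and 19.0 CPM in MB157 iEV, 28.3, 28.7 and 29.0 in MB157 iSOX2, 101, 92.9 and 109 in MB157R iEV and 149, 148 and 149 in MB157R iN1-ICD. It was 4.93-fold higher in MB157R, 1.40-fold higher with iSOX2 (log2 change 0.49 ± 0.0536, adjusted p = 6.32e-07) and 1.47-fold higher with iN1-ICD (log2 change 0.57 ± 0.0503, adjusted p = 4.15e-06), without overlap. PARP9 stood at 11.9, 10.6 and 10.5 CPM in MB157 iEV, 8.31, 8.80 and 9.26 in MB157 iSOX2, 22.3, 22.8 and 23.1 in MB157R iEV and 22.1, 25.3 and 26.3 in MB157R iN1-ICD. It was 2.07-fold higher in MB157R (log2 change 1.05 ± 0.0672, adjusted p = 4.96e-09) and 1.25-fold lower with iSOX2 (adjusted p = 0.00292). With iN1-ICD it was not called (log2 change 0.12, adjusted p = 0.162) except without replicate 1 of MB157R iN1-ICD (log2 change 0.19, adjusted p = 0.0199).

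TRIM22, a ubiquitin ligase that silences viral transcription, stood at 0.216, 0.119 and 0.196 CPM in MB157 iEV, 0.441, 0.582 and 0.520 in MB157 iSOX2, 3.00, 2.72 and 1.70 in MB157R iEV and 4.91, 5.84 and 4.36 in MB157R iN1-ICD. It rose 2.03-fold with iN1-ICD (log2 change 1.04 ± 0.202, adjusted p = 0.00119), and on the unfiltered fit it changed by 3.88 with an adjusted p of 7.24e-10 in MB157R. EPSTI1 stood at 0.111 ± 0.0164 CPM in MB157 iEV, 0.337 ± 0.0819 in MB157 iSOX2, 0.998 ± 0.182 in MB157R iEV and 3.80 ± 0.596 in MB157R iN1-ICD and rose 3.80-fold with iN1-ICD (log2 change 1.93 ± 0.192, adjusted p = 9.81e-06). XAF1, an antagonist of the apoptosis inhibitor XIAP, had 14 counts in MB157 iEV, 2 with iSOX2, 2 in MB157R iEV and 93 with iN1-ICD and was tested in no comparison. Its summed counts per library size were 48.1-fold higher (95% counting interval 13.0 to 403) with iN1-ICD than in MB157R iEV, and 8.05-fold lower (95% counting interval 1.85 to 73.0) in MB157R iEV than in MB157 iEV. These intervals cover counting error alone.

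The SOX2 and N1-ICD comparisons share no library, so the members tested in both can be set side by side. Of these 18, 7 were called higher in both (38.9%, against 9.76% of the 10024 genes tested in both): STAT2, IRF9, HERC5, HERC6, IFI6, IFI35 and PARP14. Lower with iSOX2 and higher with iN1-ICD were 4 (22.2%, against 9.89% of those genes), namely IRF1, MX1, ISG20 and USP18. No member was lower in both (11% of those genes were), and none of the 18 had a negative fitted change in both. None was called higher with iSOX2 and lower with iN1-ICD (9.36% of those genes were); DDX58 had those signs, with an unadjusted p of 0.145 and 0.0152. In the other 7 (38.9%, against 60%) at least 1 of the tests was not passed. The cells differ between these comparisons, MB157 in one and MB157R in the other, so a difference between the inductions and one between the lines cannot be told apart.

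**Figure D4:**
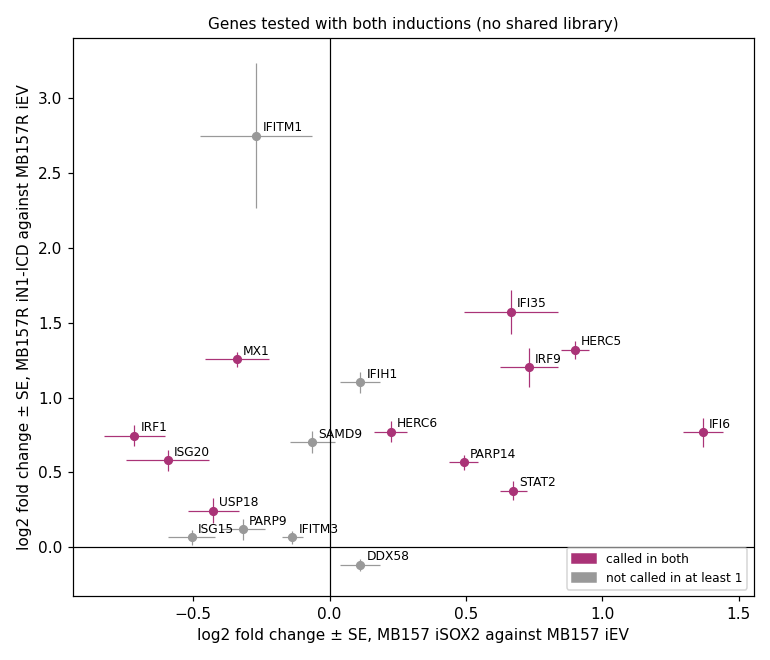
Fitted log2 fold change with iSOX2 in MB157 (x axis) against that with iN1-ICD in MB157R (y axis) for the 18 interferon-stimulated genes tested in both; bars are SE, colored points were called in both comparisons and gray points were not called in at least 1. The 7 called higher in both lie at the upper right with IFI6 farthest right, and IRF1, ISG20, MX1 and USP18 lie at the upper left.

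The genes that carry the interferon signal were read from lists of the pathway. The 21 interferon genes were tested in no comparison, and 14 of them had 0 counts in all 12 libraries, which allows up to 0.00593 CPM over the 12 (a floor of 3 counts, for counting error alone). Of the other 7, IFNE, an interferon of epithelia singled out here after its counts were seen, had 2 counts in MB157 iEV, 14 with iSOX2, 134 in MB157R iEV and 73 with iN1-ICD. This was 1.31, 1.22 and 0.561 CPM in the MB157R iEV libraries and 0.372, 0.780 and 0.586 CPM with iN1-ICD. IFNB1, the first type I interferon made after RNA sensing, had 0 counts in MB157 iEV, 2 with iSOX2, 1 in MB157R iEV and 9 with iN1-ICD. The remaining 5 (IFNA7, IFNA13, IFNG, IFNL1 and IFNL3) had at most 3 counts over the 12 libraries.

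Of 9 receptor and Janus kinase genes, each tested in each comparison, 8 were higher (88.9%, against 45% of all genes) and 1 lower in MB157R (11.1%, against 45.3%). With iSOX2 5 were higher (55.6%, against 32.5%) and 3 lower (33.3%, against 33.9%), and with iN1-ICD 4 were higher (44.4%, against 29.8%) and 4 lower (44.4%, against 29.3%). By at least 2-fold 3 were higher, all in MB157R (33.3%, against 20.7%), among them IFNLR1, the receptor of type III interferons, at 40.3 ± 2.39 against 10.4 ± 0.776 CPM (3.87-fold). JAK1, a kinase of the receptors of all 3 types, was another at 169.6 ± 12.2 against 69.8 ± 3.65 CPM (2.43-fold). Of 15 genes of nucleic acid sensing, 10 were tested in MB157R, of which 8 were higher (80%, against 45%) and 2 lower (20%, against 45.3%). Of 9 tested with iSOX2, 3 were higher (33.3%, against 32.5%) and 5 lower (55.6%, against 33.9%), and of 11 tested with iN1-ICD, 5 were higher (45.5%, against 29.8%) and 4 lower (36.4%, against 29.3%). IFI16, a DNA sensor that is itself induced by interferon, was at 145 ± 9.34 CPM in MB157R iEV and had 6 counts in MB157 iEV (log2 change 11.37 ± 0.144, adjusted p = 6.25e-16). MAVS, the adaptor through which RIG-I and MDA5 signal, was 2.16-fold lower in MB157R at 115 ± 9.28 against 248 ± 10.9 CPM.

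IRF5, a further interferon regulatory factor that acts downstream of nucleic acid sensing, was 2.31-fold higher with iN1-ICD at 31.3 ± 2.80 against 13.6 ± 1.32 CPM. Of 14 inhibitors of the pathway, 6 were higher (42.9%, against 45%) and 7 lower (50%, against 45.3%) in MB157R, shares near those of all genes. Of 12 tested with iSOX2, 5 were higher (41.7%, against 32.5%) and 2 lower (16.7%, against 33.9%), and with iN1-ICD 2 of 14 were higher (14.3%, against 29.8%) and 2 lower (14.3%, against 29.3%). SOCS1 and SOCS3, which block Janus kinases, were 10.9-fold and 2.71-fold higher in MB157R, at 5.39 ± 0.940 against 0.493 ± 0.0849 CPM and 23.2 ± 1.28 against 8.58 ± 0.686 CPM. PIAS3, an inhibitor of STAT proteins, and PTPN2, a phosphatase of Janus kinases, were 2.35-fold and 2.04-fold lower there.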

How the data were processed

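RNA-seq libraries of 4 groups with 3 replicates each were used. The labels number the replicates without saying that they came from separate cultures, and the study calls them biological, so p-values reflect only the spread among the libraries, which may be technical. Each took 800 ng of RNA through a stranded mRNA kit. The authors ran STAR and Salmon on hg38 with the reverse-strand setting and deposited estimated counts (expected counts, not normalized) for 29744 entries; 88% of the values are whole at a tolerance of 1e-06, and 61 entries repeat a name. The authors also deposited, per comparison, log2 values of TMM-scaled CPM (edgeR 3.42.4, limma 3.56.2) for 11435, 10904 and 11210 genes, after removal of genes with low TPM or counts, uncharacterized genes and pseudogenes. The counts gave every value used here and the log2 tables only the genes to test.

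Estimated counts of those genes were rounded and compared with edgeR's quasi-likelihood test (R 4.3.3, edgeR 4.0.16) on the 6 libraries of each comparison, with TMM scaling, totals over all entries as library sizes and Benjamini-Hochberg adjustment over all genes tested. The procedure was also run on simulated counts with the same dispersion for every gene and few changed genes. Since most genes were called in these data, that run gives no error rate for them. Levels are CPM with TMM factors over 12 libraries. The alternatives were RLE factors, a mean of at least 5 counts, no filter, limma-voom (limma 3.58.1), DESeq2 1.42.0, 1 fit over 12 libraries, a replicate block and leaving out each library.

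The members and lists were chosen with earlier results of these data known. Members are given in every library where a group mean reached 5 CPM and a call of at least 2-fold was made in at least 1 comparison, otherwise by group means or counts. Pathway genes are named if called with at least 2-fold and at 5 CPM in a compared group, at most 2 rises and 2 falls per list and comparison. Promoter windows and gene positions are from RefSeq on GRCh38.p14. The list of further interferon regulatory factors is reported only in part here.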

Additional observations from a re-analysis of the deposited data

How the results depend on the processing

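Under the other settings 73 of 81 fitted changes of single members kept their direction and their side of the threshold. The filter on low TPM or counts moved the counts most, by changing how many members were tested. With a mean of at least 5 counts 39 members were tested in MB157R against MB157, with 25 higher and 6 lower past 2-fold, and with no filter, 42 tested, 10 were lower, with 25 higher and 7 lower past 2-fold. Of all genes, 86.7% of 16722 and 73.1% of 21060 were called in either direction at any fold. Past 2-fold, shares under these filters were counted only with no filter (19.8% higher and 21.6% lower). With iSOX2 both filters (36 and 42 tested) gave 15 higher, and 7 higher and 2 lower by at least 2-fold. Of all genes, 56.3% of 16396 and 44.7% of 20985 were then called in either direction at any fold. With no filter, 35.7% of the 42 were called higher and 23.8% lower, and by at least 2-fold 5.51% of all genes were higher and 3.3% lower. RLE factors, limma-voom, DESeq2 and 1 fit over 12 libraries left the 4 counts of each comparison within 1.5 times. Leaving out each library gave between 2 and 4 members lower with iN1-ICD (2 without MB157R iN1-ICD replicate 1) and between 0 and 1 lower by at least 2-fold (0 without MB157R iN1-ICD replicate 3 or MB157R iEV replicate 2). In these fits between 51.8% and 56.4% of all genes were called in either direction. SAMD9 with iSOX2 ranged from -0.1159 to 0.007292 on the log2 scale, with a positive sign without MB157 iSOX2 replicate 1, and IFIT5 with iN1-ICD from -0.1622 to 0.01038, positive without MB157R iN1-ICD replicate 1. The cause of changes under a left-out library was not tested. Members under about 10 counts in a group were limited by depth.

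Same-numbered replicates did not deviate together (correlations between -0.164 and 0.0631 over 11945 genes), so the numbers were not taken as pairs. With replicate number as a block the fitted change of DDX58 with iN1-ICD was -0.1161 (adjusted p = 0.0594), and no other member's call changed. With the block, 20 members were higher and 6 lower in MB157R, 8 and 8 with iSOX2, and 25 and 3 with iN1-ICD. Of all genes, 89.6%, 64.4% and 57.3% were then called in either direction.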

Other observations

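Of 50 further interferon-stimulated genes outside the 42, 40 were tested in MB157R against MB157, of which 27 were higher (67.5%, against 45% of all genes) and 10 lower (25%, against 45.3%), with a median fitted log2 change of 0.81. By at least 2-fold 19 were higher (47.5%, against 20.7%) and 2 lower (5%, against 18.1%). LGALS3BP, a secreted glycoprotein that binds galectins, was 390.0-fold higher at 312 ± 4.73 against 0.799 ± 0.180 CPM (SD, n = 3), and LAMP3, a lysosomal membrane protein, was 75.7-fold higher at 33.5 ± 1.96 against 0.443 ± 0.102 CPM. UBE2L6, the conjugating enzyme that hands ISG15 to HERC5, was 4.36-fold lower at 8.46 ± 0.50 against 36.9 ± 1.21 CPM, and LY6E, a membrane protein that affects virus entry, was 2.49-fold lower at 131 ± 5.65 against 326 ± 5.19 CPM.

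With iSOX2 10 of 33 tested were higher (30.3%, against 32.5%) and 10 lower (30.3%, against 33.9%), shares near those of all genes. Higher by at least 2-fold were 2 (6.06%, against 3.46%), namely TNFSF10, which encodes the death ligand TRAIL (3.98-fold, 15.9 ± 0.812 against 3.99 ± 0.410 CPM), and PLSCR1, a phospholipid scramblase (3.61-fold, 67.7 ± 2.42 against 18.8 ± 0.644 CPM). With iN1-ICD 24 of 44 were higher (54.5%, against 29.8%) and 8 lower (18.2%, against 29.3%), and 10 were higher by at least 2-fold (22.7%, against 4.48%). Both with the largest rises at 5 CPM or more were guanylate-binding proteins, GBP4 (34.7-fold, 24.4 ± 1.10 against 0.704 ± 0.186 CPM) and GBP5 (5.36-fold, 14.3 ± 0.503 against 2.68 ± 0.330 CPM).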
